A study of Mus musculus with 41 samples.

Results

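Solute carriers are membrane proteins that move amino acids, sugars, ions, vitamins, lipids, nucleosides and metabolites across the plasma membrane and the membranes of organelles. The genes described here are those with a symbol of the form Slc, number, a, number whose mean lay above 6.73, the median of all deposited log2 intensities, in at least 1 of 14 groups of thymic stroma. Slc47a1, Slc6a12 and Slc6a13 were left out by the rule. Of 240 such symbols with a value, 138 passed the level and are called members. All genes with a value numbered 13283. Each gene was read from its probe of highest mean. The level chose the members, so their levels are given only as a description. Just inside it lay Slc7a6 (highest group mean 6.73), Slc22a7 (6.74) and Slc25a53 (6.74), and just outside it Slc7a6os (6.68), Slc12a4 (6.67) and Slc7a8 (6.61). In all 14 groups 57 members lay above the level, and 7 did so in 1 group only. The label holds for nearly all members. Slc4a1ap, Slc9a3r1 and Slc9a3r2 carry such a symbol but are an adaptor and 2 scaffold proteins named after a carrier.

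The thymus of male C57Bl/6 mice was taken from young mice (5 to 6 weeks old), from middle-aged mice without surgery (9 to 12 months old), and from middle-aged mice 4, 7 or 20 days after surgical castration or a sham operation. Sorting gave CD45-EpCAM+ thymic epithelial cells (TEC) and other stroma, CD45-EpCAM- (nonTEC), and RNA was measured on 41 Illumina arrays. CD45 is carried by leukocytes, and EpCAM by epithelial cells. There were 24 TEC arrays, 3 for each of 8 groups, and 17 nonTEC arrays, 3 for each of 6 groups but for 2 of sham at day 7. NonTEC of day 20 were not analysed here. Whether the arrays of 1 group are separate animals is not in the labels, so the p-values cover only the spread among arrays, and their number limits the precision. Differences below are log2 differences ± SE from limma with Benjamini-Hochberg adjusted p over all genes tested, and a member was called higher or lower at an adjusted p under 0.05. In bulk samples, fewer cells of a type and less RNA per cell cannot be told apart.

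TEC build the niche in which thymocytes develop, with a cortex that supports early T cell development and a medulla that displays tissue antigens. Slc46a2, also named thymic stromal cotransporter, is known from cortical epithelium. Other carriers serve metabolism in every cell, such as Slc2a1 for glucose, Slc25a5 for the exchange of ATP and ADP across the inner mitochondrial membrane, and Slc1a4 for neutral amino acids. Carriers can also mark other cells, such as Slc4a1, the anion exchanger of red cells, or Slc11a1, the metal carrier of macrophage phagosomes.

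The start regions of members were read from RefSeq promoter sequences (GRCm38.p6, 250 bases before to 50 after the start), which held 107 of the 138 members. Members were chosen by level, so they were set beside the 7394 promoters of genes above the same level in a group as well as beside all 27018. The median of CG pairs in these 300 bases was 19 for members, 20 for genes above the level and 7 for all genes, and the median G+C content was 62.7%, 60.7% and 52.7%. The GC box, searched as GGGCGG on both strands, was in 78.5% of member promoters, 63.2% of those above the level and 35.9% of all. The E-box CACGTG, which reads alike on both strands, was in 12.2%, 9.81% and 7.24%, and TGATGNAAN, the ATF4 and C/EBP composite element, in 4.67%, 2.33% and 4.03%. TATAAA on either strand was in 6.54%, 8.76% and 14.2%. The palindromic androgen and glucocorticoid element was in 0 of 107 member promoters and 1 of 27018. These counts describe letters in a window and not binding. Promoters of members that were lower in TEC 20 days after castration (13 of 18 listed) had a median of 14 CG pairs, and those of members that were higher (10 of 16 listed) had 20.5. Of the members whose values in TEC moved most with castration, 4 are shown here by the 250 bases before their start, 5′ to 3′ on the strand of the gene, with CG pairs in capitals. The first 3 were lower at day 20 and the last was higher. All lie on the minus strand. They are Slc46a2 (chr4:59915057-59915306), Slc23a4 (chr6:34978000-34978249), Slc1a4 (chr11:20332714-20332963) and Slc2a6 (chr2:27027999-27028248).
Slc46a2: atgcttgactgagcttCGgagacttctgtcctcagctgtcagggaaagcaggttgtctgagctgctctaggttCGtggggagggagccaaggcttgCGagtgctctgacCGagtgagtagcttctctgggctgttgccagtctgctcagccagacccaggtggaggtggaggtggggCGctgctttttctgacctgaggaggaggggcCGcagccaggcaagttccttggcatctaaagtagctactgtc
Slc23a4: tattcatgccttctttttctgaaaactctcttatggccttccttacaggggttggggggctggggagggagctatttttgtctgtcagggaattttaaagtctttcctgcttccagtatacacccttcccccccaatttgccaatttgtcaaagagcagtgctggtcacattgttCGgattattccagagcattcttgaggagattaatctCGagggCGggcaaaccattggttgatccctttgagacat
Slc1a4: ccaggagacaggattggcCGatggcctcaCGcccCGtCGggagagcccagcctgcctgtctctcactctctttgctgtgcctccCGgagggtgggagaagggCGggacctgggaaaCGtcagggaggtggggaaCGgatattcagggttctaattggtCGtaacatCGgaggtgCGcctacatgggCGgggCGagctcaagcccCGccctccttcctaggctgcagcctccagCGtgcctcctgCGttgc
Slc2a6: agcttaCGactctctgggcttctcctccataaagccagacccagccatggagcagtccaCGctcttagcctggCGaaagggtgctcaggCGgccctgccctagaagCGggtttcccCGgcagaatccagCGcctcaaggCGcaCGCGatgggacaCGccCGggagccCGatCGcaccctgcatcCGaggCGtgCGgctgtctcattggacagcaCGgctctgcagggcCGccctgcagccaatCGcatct
The stretches of Slc46a2 and Slc23a4 held 6 and 3 CG pairs, and those of Slc1a4 and Slc2a6 held 16 and 20. Each of the 4 windows of 300 bases held GGGCGG on a strand, as did most member promoters.

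The sorted fractions differed in epithelial markers as their labels say. The mean log2 intensity over thymic epithelial markers (12 with a value in TEC, 10 in nonTEC) lay between 9.60 and 10.89 on TEC arrays and between 5.93 and 8.30 on nonTEC arrays. The CD45 gene Ptprc lay at group means between 4.42 and 5.14 in nonTEC and was not analysed here in TEC. Pan-leukocyte markers were nevertheless high on TEC arrays, with list means from 9.25 to 10.84. Here and below a list mean covers all markers with a value in the fraction, while counts of markers called cover only those above the level. The median intensity of an array was 6.68 for TEC and 6.81 or 6.82 for nonTEC. Arrays within a group correlated at 0.798 or more in TEC and at 0.951 or more in nonTEC. Among TEC, 4 arrays stood apart (middle-aged array 3, castrated day 4 arrays 2 and 3, sham day 4 array 3). They were listed by hand, without a numeric rule. Sham day 4 array 3 had a thymocyte list mean of 9.36, while those of sham day 4 arrays 1 and 2 were 6.67 and 6.72. Its fibroblast mean was 8.73 against 7.17 and 7.16, and its endothelial mean 8.36 against 6.09 and 5.93. Castrated day 4 array 2 had a thymocyte mean of 7.33, between those of castrated day 4 arrays 1 (6.97) and 3 (7.77). The 6 TEC arrays of day 20, castrated and sham alike, lay apart from the other 18 on the first principal component (41.1 to 54.9 against -35.2 to 1.62). The main comparisons of castrated and sham arrays were therefore kept within a day. Day 20 levels set beside other groups below, and fits that exchange day 20 sham and unoperated arrays, cross that split. In these, castration or age and the set of arrays cannot be told apart.

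Between the fractions of unoperated mice, most members differed, and more were higher in nonTEC. Of 125 members fitted over all arrays, 42 were higher in TEC and 63 higher in nonTEC, which is 84% of them beside 76.7% of the 8487 genes tested (29.3% higher in TEC, 47.4% lower). For members that passed the level in 1 fraction alone, the level itself favoured a difference, so their calls are no separate result. Among the 90 members above it in both fractions, 23 were higher in TEC and 49 lower, 80% beside 73.3% of the 6808 genes above it in both (25.7% higher, 47.5% lower). The members that follow lay below the level of 6.73 in all nonTEC groups, so their differences are a description with no test. They were Slc6a4, the serotonin transporter (log2 difference 4.34 ± 0.19), Slc9a2, an epithelial sodium-proton exchanger (4.34 ± 0.13), Slc4a8, a sodium-driven chloride-bicarbonate exchanger (4.24 ± 0.21), Slc5a9, a sodium-coupled carrier of mannose (3.77), Slc23a3 of the ascorbate carrier family (3.54), Slc6a7, the proline transporter (3.46), and Slc7a4 (2.90). Below the level in all TEC groups, and described in the same way, were Slc16a9 of the monocarboxylate carrier family (-3.09 ± 0.23), the ascorbate carrier Slc23a2 (-2.68), Slc2a10, a carrier of the glucose family known from vessel walls (-2.57), and Slc22a4, the ergothioneine carrier (-2.37). Slc10a6, a sodium-dependent carrier of steroid sulfates, was above the level in both fractions and higher in nonTEC (-5.11 ± 0.21, adjusted p = 2.04e-20). The red cell anion exchanger Slc4a1 was higher in nonTEC as well (-2.34), where the haemoglobin gene Hba-a1 had group means from 14.44 to 14.82 against 10.44 to 13.19 in TEC, and the part of erythroid cells in that difference was not tested. The authors' normalization differed between the fractions, so that these levels were set across 2 scales.

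**Figure D1:**
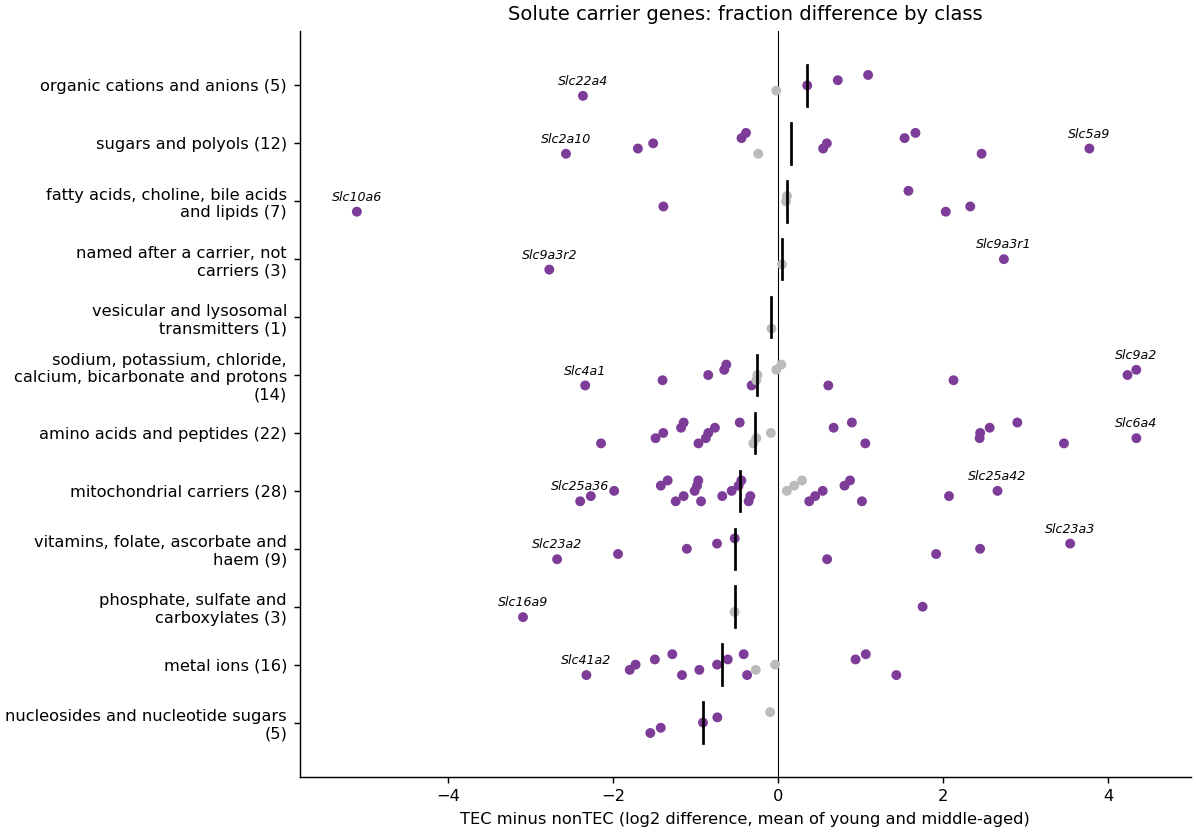
Log2 difference between TEC and nonTEC in unoperated mice (x axis) for 125 members grouped by substrate class (y axis, number of members in parentheses), with purple points at an adjusted p under 0.05, grey points above it and a bar at the class median. Members of most classes spread to both sides, from Slc10a6 at -5.11 to Slc6a4 at 4.34, while none of the 5 nucleoside and nucleotide sugar carriers was called higher in TEC. Members that passed the level in a single fraction, which itself favoured a difference, are included.

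Substrate classes were set by family number. The amino acid class therefore also holds the serotonin and creatine carriers Slc6a4 and Slc6a8. The class of sugar carrier families also holds the iodide carrier Slc5a5, the multivitamin carrier Slc5a6 and the monocarboxylate carrier Slc5a8. The class of vitamin, folate, ascorbate and haem carrier families also holds the nucleobase carrier Slc23a4 and the thymic stromal cotransporter Slc46a2. Of 5 nucleoside and nucleotide sugar carriers 4 were lower in TEC and 0 higher, and of 16 metal carriers 11 were lower and 3 higher. Mitochondrial carriers had 17 of 28 lower and 8 higher in TEC, with a median of -0.46 beside -0.26 over all genes tested. Amino acid and peptide carriers were split, with 9 of 22 higher and 10 lower, and so was the class of sugar carrier families, with 6 of 12 higher and 5 lower. All genes tested leaned the same way, with 47.4% lower in TEC. These class counts also hold members that passed the level in a single fraction. Among mitochondrial carriers these were Slc25a42 in TEC and Slc25a14, Slc25a30 and Slc25a53 in nonTEC. For such members the level itself favoured a difference, and the classes were not counted without them.

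The ageing comparison asks which carriers differ between middle-aged and young mice. In TEC, 26 of 123 members tested were higher in middle-aged mice and 8 were lower, that is 27.6% of those tested beside 18.8% of all genes tested (11.9% higher and 6.88% lower). The median difference was 0.20 over these members and 0.01 over all genes. Of mitochondrial carriers 6 of 25 rose and 0 fell, and of lipid and bile acid carriers 4 of 8 rose and 0 fell. In the amino acid class 5 of 22 rose and 2 fell, and in the class of sugar carrier families 5 of 13 rose and 2 fell. In the class of vitamin and haem carrier families 3 of 9 rose and 1 fell. Of 15 carriers of sodium, potassium, chloride, calcium, bicarbonate or protons 0 rose and 1 fell. These counts include Slc1a1 and Slc25a15, which in TEC passed the level in middle-aged mice alone, so that the level itself favoured their calls. The same filter was used for all genes tested.

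Among amino acid carriers, Slc1a1, a high-affinity glutamate and cysteine carrier, lay at 4.79, 4.73 and 4.93 on young TEC arrays and at 6.64, 6.19 and 7.49 on middle-aged arrays. All middle-aged arrays lay above all young ones, but the gene passed the level of 6.73 in middle-aged TEC alone, so the values are a description with no test. Slc1a4, for alanine, serine and cysteine, lay at 9.37, 8.91 and 9.28 in young and at 9.73, 10.53 and 10.12 in middle-aged TEC (0.94 ± 0.20, adjusted p = 0.00344). Its groups did not overlap, as was so for 39% of members and 26.8% of all genes tested in TEC. Slc6a8, the creatine transporter, lay at 10.69, 10.48 and 10.60 in young and at 11.22, 11.03 and 11.34 in middle-aged TEC (0.61 ± 0.12, adjusted p = 0.00182), again without overlap. Slc7a3, a carrier of arginine and lysine, fell from 8.13, 8.24 and 7.97 to 7.18, 6.96 and 7.71 (-0.83 ± 0.22, adjusted p = 0.0151), all 3 middle-aged arrays below the young ones.

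Glucose carriers of the Slc2 family went both ways in ageing TEC. Slc2a3, a high-affinity glucose carrier, lay at 6.95, 6.81 and 6.97 in young and at 7.78, 8.02 and 7.57 in middle-aged TEC (0.88 ± 0.19, adjusted p = 0.00359). Slc2a13, the proton-coupled inositol carrier, was higher by 0.86 ± 0.22 (adjusted p = 0.0134). Both had groups that did not overlap. Slc2a6, a hexose carrier of lysosomes, lay at 10.08, 10.80 and 10.40 in young and fell to 9.66, 8.55 and 9.99 in middle-aged TEC (-1.03 ± 0.31, adjusted p = 0.0271). The mannose carrier Slc5a9 fell from 9.23, 9.05 and 9.16 to 8.18, 8.26 and 8.62 (-0.79 ± 0.17, adjusted p = 0.0035), each middle-aged array below each young one.

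Among lipid and vitamin carriers, Slc10a6 lay at 6.07, 6.05 and 5.96 in young and at 7.10, 7.93 and 7.26 in middle-aged TEC (1.40 ± 0.35, 2.64-fold, adjusted p = 0.00944). The groups were apart. Slc27a1, a fatty acid transport protein, was higher by 0.94 ± 0.24 (adjusted p = 0.0108), Slc48a1, which carries haem out of lysosomes, by 0.91 ± 0.17 (adjusted p = 0.00175), and Slc23a4, a carrier of nucleobases within the ascorbate family, by 0.90 ± 0.24 (adjusted p = 0.0143). All 3 had groups that did not overlap. Of the choline carriers of the Slc44 family, Slc44a1 was higher by 0.50 ± 0.12 (adjusted p = 0.00888) and Slc44a2 by 0.58 ± 0.16 (adjusted p = 0.0182). Of the 4 probes of Slc11a1, the one used fell from 10.01, 10.002 and 9.94 to 8.87, 7.66 and 9.31 (-1.37 ± 0.30, adjusted p = 0.00479), while 2 of its probes went the other way. The rises of Slc25a1, the mitochondrial citrate carrier, and Slc44a1 also had a probe of opposite sign, as did Slc25a15, the ornithine carrier, which in TEC passed the level in middle-aged mice alone.

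Markers of other cells changed in the same comparison. In middle-aged TEC 4 of 5 erythroid markers were lower and 1 higher, 3 of 5 pan-leukocyte and 1 of 4 macrophage and dendritic cell markers were lower and 0 higher, and 1 of 4 thymocyte markers was higher and 0 lower. Markers of pericytes and smooth muscle had 4 of 6 lower and 0 higher, with list means of 7.84 to 8.52 against 8.57 to 8.82. The erythroid list mean was 8.37 to 8.86 against 9.14 to 9.45 in young TEC and the pan-leukocyte mean 9.57 to 9.80 against 10.55 to 10.84. Their part in the lower Slc11a1 and Slc2a6 was not tested. The count rests on the spread shared by all 24 arrays, and with only the 6 arrays compared 0 members were called. The calls of Slc10a6 and Slc23a4 ended without middle-aged array 2, that of Slc2a13 without young array 2, those of Slc7a3, Slc27a1, Slc44a2 and Slc25a5 without either, and that of Slc2a6 without either or young array 3. Without young array 2 there were 16 calls, without middle-aged array 2 there were 20, and 53 once the 4 arrays that stood apart were left out.

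In nonTEC, ageing was called as often in either direction. Of 105 members tested 15 were higher and 15 lower in middle-aged mice, 28.6% of those tested beside 32.4% of all genes tested (16.8% higher and 15.5% lower). Slc16a9 lay at 8.17, 8.004 and 7.77 on young arrays and at 10.27, 10.19 and 9.68 on middle-aged arrays (2.07 ± 0.18, 4.19-fold, adjusted p = 8.6e-07). No middle-aged array came near a young one. Slc4a4, the electrogenic sodium-bicarbonate cotransporter, rose from 7.75, 6.76 and 7.73 to 9.29, 8.49 and 8.36 (1.30 ± 0.33, adjusted p = 0.00636). Slc45a3, a sugar-family carrier known as prostein from the prostate, rose from 6.33, 5.67 and 5.90 to 6.95, 7.35 and 6.52 (0.97 ± 0.26, adjusted p = 0.00808). Both groups were apart, as were those of 37.1% of members and 40.1% of all genes tested in nonTEC.

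Slc10a6, which is far higher in nonTEC than in TEC, rose there too, from 11.38, 11.64 and 11.13 to 12.56, 12.22 and 12.08 (0.90 ± 0.19, adjusted p = 0.00185). In the class of vitamin and haem carrier families 3 of 6 tested rose and 0 fell. Those that rose were the thiamine carrier Slc19a2 (0.91 ± 0.22, adjusted p = 0.00545), Slc46a3 (0.53 ± 0.17, adjusted p = 0.0249) and Slc48a1 (0.43 ± 0.15, adjusted p = 0.0326). Slc43a1, for large neutral amino acids, rose by 0.80 ± 0.18 (adjusted p = 0.00308), and the glycine carrier Slc6a9 by 0.72 ± 0.17 (adjusted p = 0.0038). Slc5a6, the sodium-dependent multivitamin transporter, rose by 0.64 ± 0.15 (adjusted p = 0.00396).

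Among the 15 called lower, Slc16a5 of the monocarboxylate family lay at 6.69, 6.57 and 7.90 in young and 5.20, 5.87 and 5.57 in middle-aged nonTEC. Of the nonTEC groups it passed the level in young mice alone, so these values are a description with no test. Slc2a6 fell from 8.22, 8.02 and 7.81 to 6.68, 6.79 and 7.17 (-1.14 ± 0.21, adjusted p = 0.000715). In both, all middle-aged arrays lay below the young ones. Slc15a3, a lysosomal carrier of histidine and peptides, fell by 0.80 on the log2 scale (SE 0.17, adjusted p = 0.00172), and Slc9a3r1, a scaffold protein and not a carrier, fell too (-0.996 ± 0.21, adjusted p = 0.00168). Of 15 metal carriers 3 fell and 0 rose, among them Slc39a13, a zinc carrier of the secretory pathway (-0.59 ± 0.14, adjusted p = 0.00512). Of 27 mitochondrial carriers 4 fell and 3 rose, and the phosphate carrier Slc25a3 (-0.65 ± 0.13, adjusted p = 0.00142) and the ATP and ADP carrier Slc25a5 (-0.56 ± 0.14, adjusted p = 0.00567) were among those that fell. In the same arrays 5 of 6 epithelial, 6 of 6 thymocyte, 5 of 5 pan-leukocyte and 4 of 4 B lineage markers tested fell, and 6 of 10 fibroblast markers fell and 0 rose (list mean 11.80 to 12.23 against 12.49 to 12.74), the pan-leukocyte list mean being 6.65 to 7.42 in middle-aged against 8.73 to 8.96 in young nonTEC, and the part of these cells in the falls was not tested. The calls of Slc46a3 and Slc48a1 ended without any 1 of several arrays, among them young arrays 2 and 3 and middle-aged array 3. With only the 6 arrays compared 17 members were called, and 19 without young array 3.

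**Figure D2:**
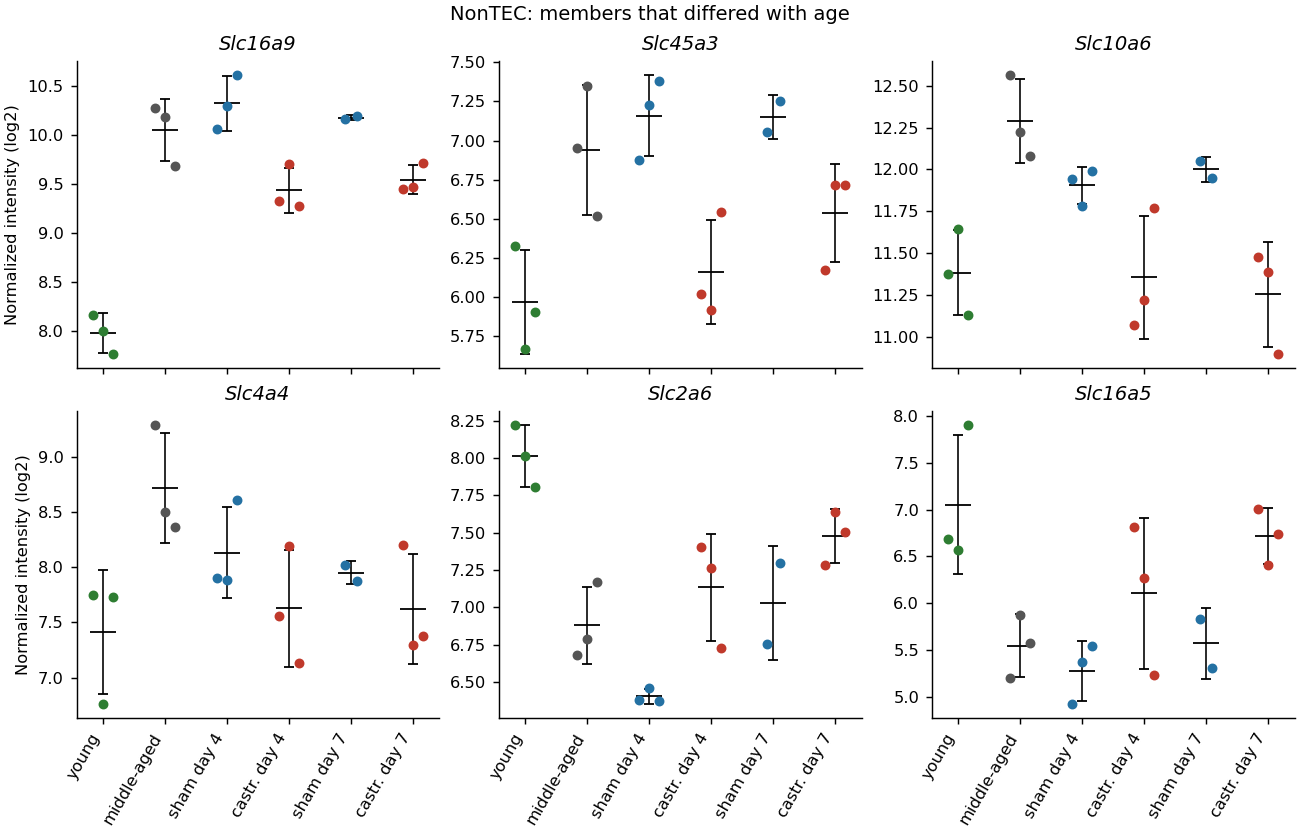
Normalized log2 intensity (y axis) of 6 members on each nonTEC array by group (x axis), with points for arrays, horizontal bars for group means and error bars for SD (3 arrays a group, 2 for sham at day 7). Young arrays of Slc16a9 lie between 7.77 and 8.17 and middle-aged ones between 9.68 and 10.27, and its castrated arrays at day 4 (9.28 to 9.70) lie below its sham arrays (10.06 to 10.61).

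The ageing difference itself was compared between the fractions over all arrays. Of 125 members, 20 had an ageing difference that was higher in TEC than in nonTEC and 4 one that was lower, 19.2% beside 11.2% of all genes tested (7.78% higher and 3.45% lower). For Slc2a10 it was 1.63 in TEC and -0.22 in nonTEC, a difference of 1.85 ± 0.36 (adjusted p = 0.00107), although both TEC groups lay below the level of 6.73 (means 4.65 and 6.28). For Slc9a3r1 it was 0.29 and -0.996, and for Slc25a5 0.34 and -0.56 (adjusted p = 0.000582 for each difference). Slc25a5 and the copper carrier Slc31a1 were called in opposite directions, higher with age in TEC and lower in nonTEC, though the TEC call of Slc31a1 ended without any 1 of 5 of its 6 arrays, and that of Slc25a5 without young array 2 or middle-aged array 2. The difference of Slc1a4 was 1.25 ± 0.26 (adjusted p = 0.00181), from 0.94 in TEC and -0.31 in nonTEC. For Slc11a1 it was -1.54 ± 0.37 (adjusted p = 0.00603), from -1.37 in TEC and 0.17 in nonTEC. Slc10a6, Slc2a3 and Slc48a1 were called higher with age in both fractions and Slc2a6 lower in both. Those 3 are 11.5% of the 26 members higher with age in TEC, beside 28.7% over all genes. Slc2a6 is 12.5% of the 8 lower with age in TEC, beside 20.2%. Slc25a5 and Slc31a1, called in opposite directions, are 7.69% of the 26, beside 4.7%. With only the arrays compared, 1 member was called, and without young TEC array 2 there were 15. Markers of cell types differed in the same test. Higher were 4 of 10 epithelial, 4 of 4 B lineage and 2 of 5 pan-leukocyte markers, and 0 of these were lower. Erythroid markers had 1 of 5 higher and 3 lower, and pericyte and smooth muscle markers 1 of 6 higher and 2 lower. Their part in the differences of members was not tested.

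The castration comparison asks which carriers differ after castration from sham surgery on the same day. In TEC at day 4, 8 of 123 members were higher after castration and 1 was lower, 7.32% beside 3.62% of all genes tested (2.33% higher and 1.29% lower). Slc46a2, the thymic stromal cotransporter, lay at 9.34, 9.31 and 8.74 on castrated arrays and at 8.38, 8.27 and 8.23 on sham arrays (0.84 ± 0.15, 1.79-fold, adjusted p = 0.0133). Slc46a1, the proton-coupled folate carrier of the same family, lay at 7.86, 8.11 and 7.74 against 7.01, 6.56 and 7.10 (1.01 ± 0.22, adjusted p = 0.023). Castrated arrays of both genes lay above all sham arrays. On that day groups did not overlap for 23.6% of members and 22.9% of all genes tested. Slc6a8 lay at 10.89, 11.15 and 11.05 against 10.67, 10.64 and 10.25 (0.51 ± 0.12, adjusted p = 0.0267).

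Also called was Slc7a6, a carrier of cationic and neutral amino acids. In TEC it passed the level in this castrated group alone, so the level itself favoured a difference and the call is no separate result. Other members higher at day 4 were Slc4a3, an anion exchanger (0.80 ± 0.22, adjusted p = 0.0443), Slc39a11, a zinc carrier (0.75 ± 0.17, adjusted p = 0.0267), and Slc25a42, the mitochondrial carrier of coenzyme A (0.74 ± 0.18, adjusted p = 0.0343). The nucleoside carrier Slc29a1 was higher by 0.74 ± 0.15 (adjusted p = 0.0185) on the probe used, and its other probe went the other way, so that the mean of both probes gave -0.27. The member that fell, Slc46a3, lay at 8.19, 6.64 and 7.11 on castrated arrays and at 8.29, 8.49 and 8.68 on sham arrays (-1.17 ± 0.32, adjusted p = 0.0493). On the same arrays 1 of 5 pan-leukocyte and 1 of 4 macrophage and dendritic cell markers tested were lower after castration, the pan-leukocyte list mean being 9.25 to 10.13 against 10.37 to 10.72, and the part of these cells in the lower Slc46a3 was not tested. These day 4 calls rest on few arrays. Leaving out castrated array 2 left 0, castrated array 3 left 1, sham array 3 left 2 and sham array 2 left 4, while 23 were called when castrated array 1 was left out. With the 4 arrays that stood apart all left out, 0 were called. With unoperated middle-aged arrays in place of sham 0 members were called, with differences of -0.13 for Slc25a42 and -0.17 for Slc6a8, and with only the 6 arrays compared there were also 0.

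At day 7 in TEC 0 of 123 members passed limma's adjusted threshold, beside 0.171% of all genes tested (0.0732% higher and 0.0976% lower), and 16 had an unadjusted p under 0.05. The smallest p belonged to Slc46a2, at 8.94, 9.03 and 9.23 on castrated and 8.48, 8.44 and 8.48 on sham arrays (0.60 ± 0.15, adjusted p = 0.112). Its groups did not overlap, as at day 4. At day 7 this was also so for 26.8% of members and 27.3% of all genes tested. The next were Slc6a7 (1.31 ± 0.34, adjusted p = 0.114), Slc48a1 (-0.61 ± 0.17, adjusted p = 0.155), the sodium-calcium-potassium exchanger Slc24a3 (0.60 ± 0.20, adjusted p = 0.212) and the vesicular glutamate carrier Slc17a8 (0.94 ± 0.33, adjusted p = 0.23). With array weights 32 members passed, with unoperated arrays as control 5, without the 4 arrays that stood apart 4, and with only the arrays compared 1.

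At day 20 in TEC, 16 of 123 members were higher after castration and 18 were lower, 27.6% beside 22.5% of all genes tested (13.1% higher and 9.40% lower). All 34 had castrated and sham groups that did not overlap, as did 87 of the 123 tested (70.7%) and 58.5% of all genes tested. The median difference was -0.17 over the members tested and -0.04 over all genes. In the class of vitamin, folate, ascorbate and haem carrier families 3 of 9 fell and 1 rose. Of 8 carriers of lipids, bile acids or choline 3 fell and 0 rose, and of 25 mitochondrial carriers 2 fell and 0 rose. Of 15 carriers of common ions 5 rose and 2 fell, of 22 of amino acids and peptides 4 rose and 2 fell, and of 3 vesicular transmitter carriers 2 rose and 0 fell. In the class of sugar carrier families 3 of 13 rose and 3 fell.

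Slc23a4 fell most at day 20. It lay at 6.52, 6.83 and 6.89 on castrated arrays and at 8.27, 8.50 and 8.59 on sham arrays (-1.71 ± 0.24, 3.26-fold lower, adjusted p = 6.91e-05). Slc46a2 lay at 7.35, 7.50 and 7.77 against 8.72, 8.85 and 9.08 (-1.34 ± 0.15, 2.54-fold lower, adjusted p = 1.45e-05). Castrated day 20 arrays of Slc46a2 were the lowest of all 24 TEC arrays, though the day 20 arrays stood apart from the others. Slc10a6 lay at 4.58, 4.86 and 4.59 against 5.92, 6.04 and 5.82 (-1.25 ± 0.35, adjusted p = 0.0125), and here the sham arrays themselves lay below the level of 6.73. Slc1a4 lay at 8.37, 8.45 and 8.66 against 9.58, 9.58 and 9.60 (-1.09 ± 0.20, adjusted p = 0.000545).

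All castrated arrays of Slc10a6 and Slc1a4 lay below the sham arrays. Slc46a1 lay at 6.05, 6.17 and 6.52 on castrated and 7.06, 7.00 and 7.09 on sham arrays (-0.81 ± 0.22, adjusted p = 0.0105). Slc6a8 lay at 10.72, 10.81 and 10.76 against 11.41, 11.47 and 11.55 (-0.71 ± 0.12, adjusted p = 0.000265). Its sham arrays of day 20 were the highest of all 24 TEC arrays, with the same limit as for Slc46a2. Slc27a1 was lower by 0.93 ± 0.24 (adjusted p = 0.00747) and Slc2a3 by 0.84 ± 0.19 (adjusted p = 0.00262). Slc22a17, a receptor-like member of the organic cation family, was lower by 0.79 ± 0.19 (adjusted p = 0.00539), Slc12a2, the sodium-potassium-chloride cotransporter, by 0.59 ± 0.17 (adjusted p = 0.0182), and Slc29a1 by 0.54 ± 0.15 (adjusted p = 0.0104).

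**Figure D3:**
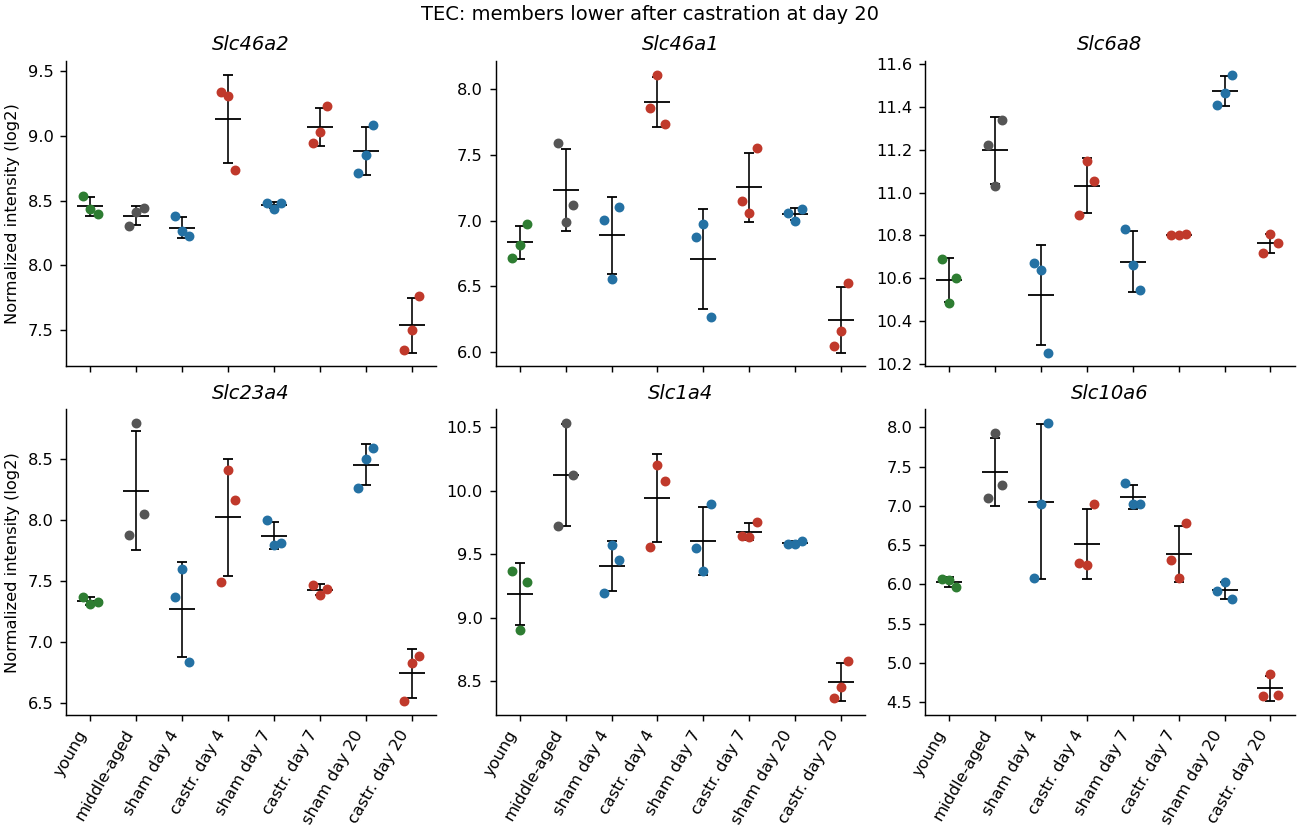
Normalized log2 intensity (y axis) of 6 members on each TEC array by group (x axis, 3 arrays a group), with points for arrays, horizontal bars for group means and error bars for SD. Slc46a2 lies above sham at day 4 (means 9.13 and 8.29) and day 7 (9.07 and 8.47) and below it at day 20 (7.54 and 8.88).

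The member that rose most at day 20 was Slc2a6, at 10.59, 10.76 and 10.52 on castrated arrays and 9.07, 8.94 and 8.78 on sham arrays (1.69 ± 0.31, 3.24-fold, adjusted p = 0.00062). Slc6a7 lay at 10.87, 10.88 and 10.88 on castrated arrays and at 9.49, 9.30 and 9.55 on sham arrays (1.43 ± 0.34, adjusted p = 0.0049). Both groups were apart, and the castrated day 20 arrays of Slc6a7 were the highest of all 24. Slc15a3 lay at 9.21, 9.11 and 9.14 against 8.16, 7.64 and 7.60 (1.35 ± 0.22, adjusted p = 0.00027). For this gene the castrated arrays resembled those of other groups (means 8.67 to 9.28), and the sham arrays of day 20 were the low ones (mean 7.80). Levels of day 20 and of other groups come from sets of arrays that stood apart.

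Slc17a8 and Slc17a6, which load glutamate into synaptic vesicles, were higher by 1.38 ± 0.33 (adjusted p = 0.00489) and 1.18 ± 0.27 (adjusted p = 0.00368), Slc17a6 lying at 7.26, 7.55 and 7.38 against 6.27, 6.22 and 6.17. Slc6a4 lay at 9.63, 9.78 and 9.86 against 9.01, 8.31 and 8.52 (1.14 ± 0.31, adjusted p = 0.0111). Slc5a8, a sodium-coupled monocarboxylate carrier of gut and kidney, was higher by 1.30 ± 0.29 (adjusted p = 0.00287), and Slc4a8 by 1.21 ± 0.34 (adjusted p = 0.0148). Slc7a3 lay at 8.24, 8.27 and 8.04 against 7.03, 7.21 and 7.11 (1.07 ± 0.22, adjusted p = 0.00181). Slc23a3 was higher by 1.06 ± 0.21 (adjusted p = 0.00104) and Slc26a4, the anion exchanger pendrin, by 0.99 ± 0.31 (adjusted p = 0.028). Slc5a9 lay at 8.96, 9.08 and 9.00 against 8.15, 7.99 and 8.02 (0.96 ± 0.17, adjusted p = 0.000402). In these groups no castrated array overlapped a sham array.

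Slc40a1 and Slc4a1 also rose at day 20, while of 15 metal carriers 1 rose (Slc40a1) and 1 fell (Slc39a7). Slc40a1, the iron exporter ferroportin, lay at 7.79, 7.93 and 7.66 on castrated and 6.76, 6.34 and 6.35 on sham arrays (1.31 ± 0.31, adjusted p = 0.00465), and Slc4a1 at 6.81, 6.68 and 6.78 against 5.76, 5.16 and 5.58 (1.25 ± 0.25, adjusted p = 0.00122). Castrated and sham arrays were apart for both. With unoperated middle-aged arrays as control neither was called any more, nor were Slc15a3, Slc2a3, Slc4a8, Slc9a7 and Slc24a3. Markers of blood cells moved the same way. In castrated TEC 4 of 5 pan-leukocyte, 3 of 4 macrophage and dendritic cell and 2 of 5 erythroid markers tested were higher and 0 lower, with list means of 10.50 to 10.73 against 9.32 to 9.63, 6.78 to 6.98 against 5.94 to 6.21, and 8.19 to 8.46 against 7.23 to 7.997. These list means cover 5, 8 and 7 markers with a value, including those below the level. The part of blood cells in the rises of Slc40a1, Slc4a1, Slc15a3 and Slc2a6 was not tested. The calls of Slc10a6 and Slc6a4 ended without sham array 2, that of Slc4a8 also without sham array 3, and that of Slc46a1 without castrated array 1. The number of day 20 calls was 23 to 30 when any 1 of the 6 arrays was left out. With only these arrays it was 71. With unoperated arrays as control it was 80, but those arrays lie outside the day 20 set. For that count and the calls lost with that control, castration and the set of arrays cannot be told apart.

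**Figure D4:**
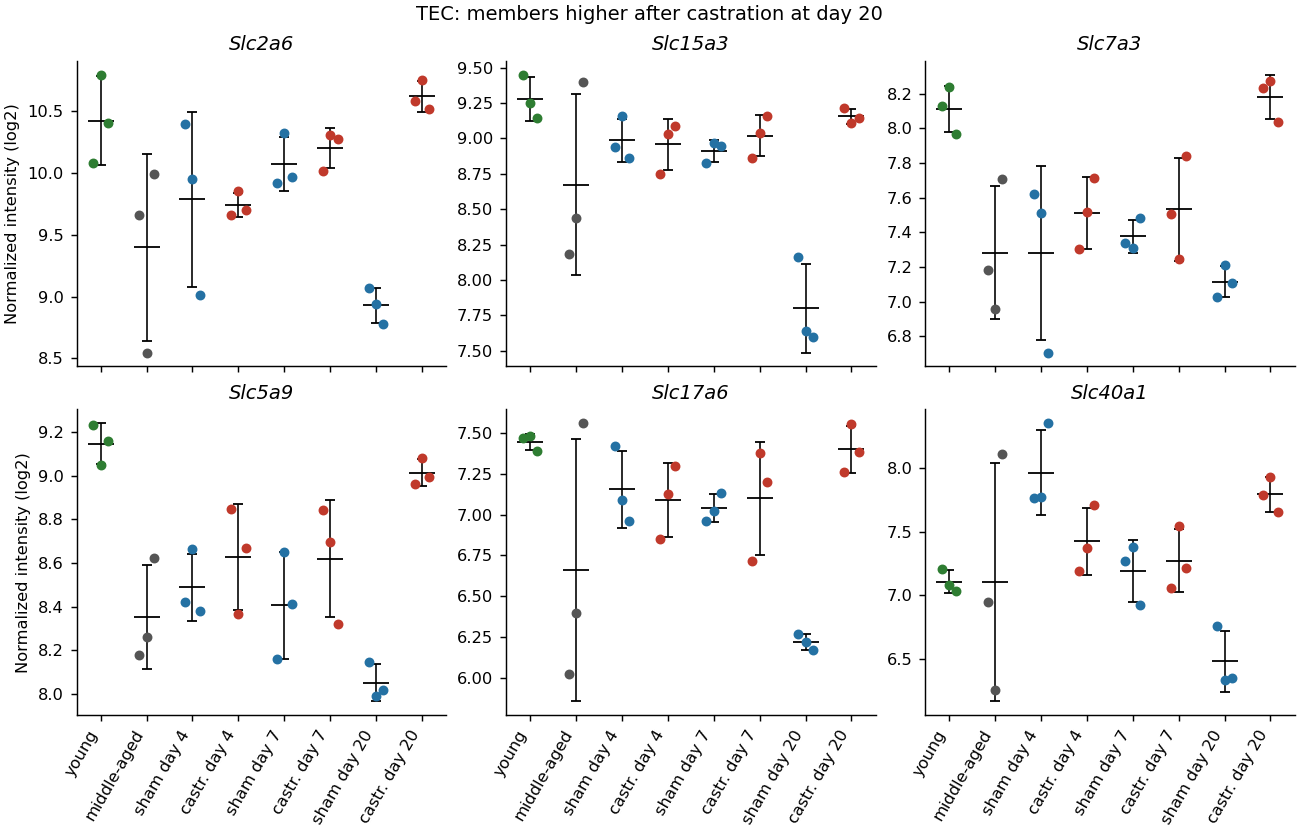
Normalized log2 intensity (y axis) of 6 members on each TEC array by group (x axis, 3 arrays a group), with points for arrays, horizontal bars for group means and error bars for SD. At day 20 castrated arrays lie above sham arrays in each panel. For Slc2a6, Slc7a3, Slc5a9 and Slc17a6 young arrays lie at about the same height as castrated day 20 arrays. The day 20 arrays stood apart from all others, so that castration and the set of arrays cannot be told apart in that likeness.

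The castration difference was then tested for change between the 3 days in TEC, with an F test over the days. Of 123 members 26 changed between days, 21.1% beside 17% of all genes tested. The smallest p belonged to Slc46a2, with differences of 0.84 at day 4, 0.60 at day 7 and -1.34 at day 20 (adjusted p = 1.16e-05). Slc6a8 followed with 0.51, 0.13 and -0.71 (adjusted p = 0.000206), and Slc23a4 with 0.75, -0.44 and -1.71 (adjusted p = 0.000315). Slc29a1 had 0.74, 0.07 and -0.54 (adjusted p = 0.00108), Slc46a1 1.01, 0.55 and -0.81 (adjusted p = 0.00121), and Slc1a4 0.54, 0.08 and -1.09 (adjusted p = 0.0014). All 6 were higher than sham at day 4 and lower at day 20, 4 of them called at both days (Slc29a1, Slc46a1, Slc46a2 and Slc6a8). Those 4 are 50% of the 8 members higher at day 4 and 22.2% of the 18 lower at day 20. The same overlap over all genes was 20.9% and 5.19%. The shares rest on day 4 calls, all of which ended without castrated day 4 array 2 or without the 4 arrays that stood apart. At day 4 Slc29a1 also changed sign with the mean of its probes, and Slc6a8 with unoperated arrays as control. The reverse order was seen in Slc6a4 (-1.03, 0.05 and 1.14, adjusted p = 0.00617) and Slc4a1 (-0.45, 0.17 and 1.25, adjusted p = 0.00661). Day 4 and day 20 arrays are different samples, but the day 20 arrays stood apart from all others, so that a difference between days and one between sets of arrays cannot be told apart.

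Averaged over the 3 days in TEC, 9 of 123 members were higher and 6 lower after castration, 12.2% beside 10.8% of all genes tested (5.87% higher and 4.95% lower). Slc6a7 was higher by 1.09 ± 0.20 (adjusted p = 0.00308), Slc17a8 by 0.93 ± 0.19 (adjusted p = 0.00664), Slc26a4 by 0.71 ± 0.18 (adjusted p = 0.0193) and Slc24a3 by 0.64 ± 0.12 (adjusted p = 0.00306). These 4, with Slc39a11 (0.50), Slc7a3 (0.49) and Slc5a9 (0.44), had the same sign on each day. Lower on each day were Slc10a6 (-0.84 ± 0.20, adjusted p = 0.0142), Slc2a3 (-0.55 ± 0.11, adjusted p = 0.00551), Slc48a1 (-0.47 ± 0.10, adjusted p = 0.00809), Slc25a28, a mitochondrial iron carrier (-0.28), and Slc1a3, a glutamate carrier (-0.19). Slc2a6, Slc15a3 and Slc23a4 passed the threshold with signs that differed between days. The calls of Slc1a3, Slc2a6, Slc23a4 and Slc25a28 ended without most single arrays, and that of Slc15a3 without sham day 20 array 2 or 3. With unoperated arrays as control, which lie outside the day 20 set of arrays, 40 members passed, and Slc1a3 then turned to 0.01.

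Ageing and castration at day 20 share no TEC arrays and could be set side by side. Both used the spread estimated over all 24 TEC arrays, so the lists are not independent. With only the arrays of the ageing comparison, 0 members were called for ageing. Of the 26 members higher with age, 11 were lower after castration at day 20, which is 42.3% of the first list and 61.1% of the second, and 0 were higher. They were Slc10a6, Slc1a4, Slc22a17, Slc23a4, Slc27a1, Slc2a3, Slc39a7, Slc44a2, Slc45a4, Slc5a5 and Slc6a8. Of the 8 members lower with age, 6 were higher at day 20, 75% of the first list and 37.5% of the second, and 0 were lower. These were Slc17a6, Slc23a3, Slc2a6, Slc5a9, Slc7a3 and Slc9a7. Over all genes tested the same shares were 45.7% and 58.1% for genes higher with age and 71.3% and 37.5% for genes lower with age, close to those of the members. A member outside this pattern, chosen here after its values were seen, was Slc46a2, lower at day 20 with an ageing difference of -0.07 ± 0.15.

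**Figure D5:**
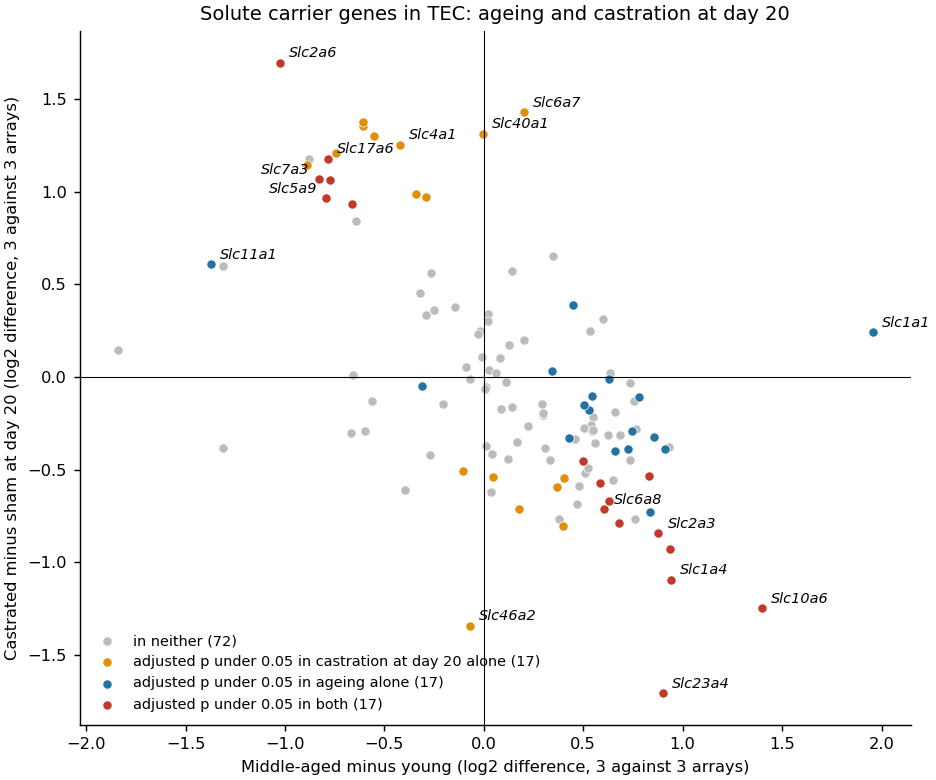
Log2 difference between middle-aged and young TEC (x axis) against that between castrated and sham TEC at day 20 (y axis) for 123 members, coloured by where the adjusted p was under 0.05. The 17 members called in both lie in the upper left (6) and lower right (11) corners, with Slc2a6 at -1.03 and 1.69 and Slc23a4 at 0.90 and -1.71.

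In nonTEC at day 4 after castration, 1 of 105 members was higher and 6 were lower, 6.67% beside 6.31% of all genes tested (2.65% higher and 3.65% lower). Slc2a6 lay at 7.41, 7.27 and 6.73 on castrated and at 6.38, 6.46 and 6.37 on sham arrays (0.73 ± 0.21, adjusted p = 0.0429). Slc16a9 lay at 9.33, 9.70 and 9.28 against 10.06, 10.30 and 10.61 (-0.88 ± 0.18, adjusted p = 0.00977), and Slc45a3 at 6.02, 5.92 and 6.54 against 6.87, 7.23 and 7.38 (-1.0 ± 0.26, adjusted p = 0.0279). In all 3 castrated and sham arrays were apart, as they were for 33.3% of members and 28.7% of all genes tested. Lower as well were Slc29a3, a nucleoside carrier of lysosomes (-0.65 ± 0.18, adjusted p = 0.0344), Slc6a8 (-0.55 ± 0.16, adjusted p = 0.0472), Slc45a4 (-0.52 ± 0.15, adjusted p = 0.0452) and Slc29a1 (-0.48 ± 0.12, adjusted p = 0.0227), the last with a second probe of opposite sign. Slc6a8 and Slc29a1 were higher after castration in TEC on that day, and whether the fractions differed was not tested.

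These day 4 calls also rest on single arrays. There were 0 without castrated array 1 or without sham array 3, 1 without castrated array 2 or sham array 2, 4 without sham array 1, and 11 without castrated array 3. At day 7 in nonTEC 0 of 105 members passed limma's adjusted threshold, beside 0.438% of all genes tested (0.0515% higher and 0.386% lower), and 12 had an unadjusted p under 0.05, while 13 passed with array weights, 14 with unoperated arrays as control and 4 with only the arrays compared. The smallest p there belonged to Slc24a3 (-0.72 ± 0.20, adjusted p = 0.129), Slc10a6 (-0.75 ± 0.21, adjusted p = 0.135), Slc1a4 (0.63 ± 0.20, adjusted p = 0.179), Slc16a9 (-0.63 ± 0.20, adjusted p = 0.187) and Slc15a3 (0.54 ± 0.19, adjusted p = 0.241).

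Over both days in nonTEC 2 of 105 members were higher and 5 lower after castration, 6.67% beside 6.54% of all genes tested (2.73% higher and 3.81% lower). Slc16a5 lay at 6.82, 6.27 and 5.23 on castrated arrays of day 4, at 7.01, 6.41 and 6.74 on those of day 7, and between 4.93 and 5.84 on sham arrays (0.99 ± 0.29, adjusted p = 0.0466). Castrated array 3 of day 4 overlapped the sham arrays. Slc2a6 was higher by 0.59 ± 0.16 (adjusted p = 0.0292). Lower were Slc45a3 (-0.81 ± 0.19, adjusted p = 0.0161), Slc16a9 (-0.76 ± 0.14, adjusted p = 0.00327), Slc10a6 (-0.65 ± 0.14, adjusted p = 0.0103), Slc24a3 (-0.57 ± 0.14, adjusted p = 0.0168) and the taurine carrier Slc6a6 (-0.37 ± 0.10, adjusted p = 0.0338), the last with another probe of opposite sign. Each had 1 sign on both days. The calls of Slc16a5 and Slc2a6 ended without most single arrays, that of Slc24a3 without sham array 3 of day 4 or either sham array of day 7, that of Slc6a6 without most, that of Slc45a3 without either sham array of day 7, and that of Slc10a6 without the first of these. The call of Slc16a9 held without each array in turn.

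Of these 5 lower members, Slc10a6, Slc16a9 and Slc45a3 were higher with age in nonTEC, and both higher ones, Slc16a5 and Slc2a6, were lower with age, Slc16a5 having passed the level through young mice alone. That is 60% of the 5 and 100% of the 2, beside 61.5% and 76.9% for all genes. Castrated arrays of Slc16a9 (9.28 to 9.72) lay above the young and below the sham arrays (10.06 to 10.61). In castrated nonTEC at day 4, 5 of 6 epithelial, 6 of 6 thymocyte and 4 of 5 pan-leukocyte markers tested were higher, the epithelial list mean being 6.78 to 7.36 against 5.93 to 6.11, and their part in the rise of Slc2a6 was not tested. The count over both days was 1 without sham day 7 array 1, 3 without sham day 4 array 3 or sham day 7 array 2, 4 without castrated array 1 of day 4 or castrated array 3 of day 7, and 11 with unoperated arrays as control.

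Other transport genes and pathways that bear on carriers were counted from lists. In TEC at day 20, where 13.1% of all genes tested were higher and 9.40% lower, 5 of 17 subunits of the vacuolar proton pump (V-ATPase), which acidifies lysosomes, were higher after castration and 0 lower, and 5 of 12 hypoxia and glycolysis genes were higher and 0 lower, among them Pgk1 (0.85), Ldha (0.87) and Ankrd37 (1.37). The V-ATPase genes were Atp6v0a1 (0.76), Atp6v0e (0.54), Atp6v0a2 (0.54), Atp6v0b (0.45) and Atp6ap2 (0.32). Of the same 17 subunits 0 were higher and 1 lower at day 4, Atp6v0e2 (-1.46). Over the 3 days 1 was higher, Atp6v0a1 (0.37), and 4 were lower, Atp6v1g1 (-0.67), Atp6v0e2 (-0.66), Atp6v0d1 (-0.25) and Atp6ap1 (-0.25). Genes of the amino acid response to ATF4 had 2 of 14 higher, Trib3 (0.89) and Chac1 (0.80), and 1 lower, Atf3 (-1.96). The transferrin receptor Tfrc of the iron list was higher by 1.30, and 0 of the other 9 iron genes were called. Of 8 partner subunits of carriers 0 were called at day 20, and of 14 ABC transporters 1 was lower, Abcg1 (-0.70).

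With age in TEC, where 11.9% of all genes tested were higher and 6.88% lower, of the same lists 2 of 12 P-type ATPases, 2 of 17 V-ATPase subunits and 1 of 14 ABC transporters were higher and 0 lower. In the hypoxia and glycolysis list Pgk1 (-0.71) and Ankrd37 (-1.01) were lower and Pdk1 (0.61) higher, and of the ATF4 list Trib3 (-1.06) and Chac1 (-0.92) were lower and Atf3 (0.86) higher. In nonTEC 16.8% of all genes tested were higher with age and 15.5% lower. There 4 of 18 ABC transporters were higher and 0 lower, and 4 of 12 hypoxia and glycolysis genes lower and 1 higher. Of 8 partner subunits 3 were lower and 1 higher, the lower ones including Emb, which escorts monocarboxylate carriers (-1.49). At day 4 after castration Emb was higher in nonTEC (1.60).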

How the data were processed

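The deposited values are normalized log2 intensities of Illumina arrays. Base 2 was assumed, and limma is named per the submitters' processing notes, without version or role. The background correction is not given in the sources used here. Shared quantiles of the arrays showed that each fraction was normalized separately. Arrays were grouped from the labels and 0 were left out. Of 24671 probes, the 20825 with 1 listed gene were used.

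Linear models of group means were run with limma 3.58.1 under R 4.3.3 (trended empirical Bayes) within TEC (8195 genes, 16 residual degrees of freedom), within nonTEC (7771 genes, 11) and over both (8487 genes, 27), with Benjamini-Hochberg adjustment over all genes tested. A gene was tested where at least 1 group mean passed 6.73. Of the 138 members, 123 passed it in TEC and 105 in nonTEC. The fit was tested on simulated data. Figures were drawn with matplotlib 3.10.9.

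Members, lists, comparisons and alternatives were chosen with earlier results of these data known. Members named were, per comparison, up to 10 of largest change in each direction with an adjusted p under 0.05 and groups that did not overlap (or 1 sign on each day), up to 4 of smallest p per substrate class, the 10 of smallest p between days, the 5 of smallest p where under 3 passed, and a fixed set of carriers. From the other lists up to 3 genes were to be named by smallest p, and the V-ATPase genes printed beyond that were chosen after their values were seen. Alternatives changed the filter, normalization, probe choice, variance model, array weights, arrays fitted, control, replicate block and single arrays.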

Additional observations from a re-analysis of the deposited data

Results flagged for a closer look

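The ageing difference (middle-aged minus young) of 24 members differed between TEC and nonTEC by an interaction test in limma over all arrays. Given as the value in TEC minus that in nonTEC on the log2 scale, it was positive for Slc2a10 (1.85), Slc9a3r1 (1.29), Slc1a4 (1.25), Slc39a13 (1.24), Slc27a1 (1.24), Slc7a11 (1.23), Slc25a42 (1.23), Slc23a4 (1.15), Slc25a15 (1.14), Slc22a17 (1.02), Slc25a39 (1.01) and Slc31a1 (1.0). It was also positive for Slc44a2 (0.99), Slc25a5 (0.90), Slc10a3 (0.85), Slc25a1 (0.83), Slc39a7 (0.83), Slc45a4 (0.73), Slc35a4 (0.58) and Slc4a1ap (0.56). It was negative for Slc11a1 (-1.54), Slc7a3 (-1.10), Slc1a3 (-0.72) and Slc25a38 (-0.65). Cell type markers differed in the same test, and their part in these values was not tested.

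The castration difference in TEC changed between the 3 days by the F test of limma, and the 10 members of smallest adjusted p were Slc46a2 (1.16e-05), Slc6a8 (0.000206), Slc23a4 (0.000315), Slc29a1 (0.00108), Slc46a1 (0.00121), Slc1a4 (0.0014), Slc23a3 (0.00606), Slc6a4 (0.00617), Slc27a1 (0.00661) and Slc4a1 (0.00661).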

How the results depend on the processing

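Counts of members called moved with array weights and with which arrays entered the fit. Counts follow the order TEC day 4, day 7, day 20, average over days and change between days unless named. With array weights they were 37, 32, 76, 47 and (castration in TEC between days) 74, with 56 for ageing in TEC, and in nonTEC 25 at day 4, 13 at day 7 and 25 over days (the weights stopped before tolerance in 2 fits). With only the arrays compared they were 0, 1, 71 and 29 (the average over days being the last), with 0 for ageing in TEC, 17 for ageing in nonTEC, 1 for the ageing difference between fractions, and in nonTEC 3 at day 4, 4 at day 7 and 11 over days. Without the 4 TEC arrays that stood apart there were 53 for ageing in TEC, 0 at day 4 and 4 at day 7. With unoperated middle-aged arrays in place of sham they were 0, 5, 80 and 40, and 14 at day 7 and 11 over days in nonTEC. In the 80 and 40, castration and the day 20 set of arrays cannot be told apart. The mean of all probes gave 4 in nonTEC at day 4. Leaving out 1 array in turn gave 16 to 42 for ageing in TEC, 19 to 31 for ageing in nonTEC, 15 to 33 for the ageing difference, 0 to 23 at day 4, 0 to 0 at day 7, 23 to 30 at day 20, 10 to 21 over days and 18 to 31 between days in TEC, 0 to 11 at day 4, 0 to 0 at day 7 and 1 to 9 over days in nonTEC, and 101 to 109 between the fractions. Of 250 such counts over all comparisons and alternatives 50 moved by over 1.5 times, and apart from fewer arrays in the fit the cause was not tested.

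Among single members 6 values changed sign. These were Slc29a1 at day 4 with the mean of its probes (-0.27), Slc25a1 for ageing in TEC (-0.0028) and Slc22a17 for the ageing difference (-0.11) with sham in place of unoperated arrays, and, with unoperated arrays in place of sham, Slc25a42 (-0.13) and Slc6a8 (-0.17) at day 4 and Slc1a3 over days (0.014). The cause was not tested.

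No pairing of arrays by replicate number was used in the main fits. Within a fraction, 7 of 20 same-numbered pairs of groups had a correlation of deviations over 0.1 (range -0.15 to 0.26). Arrays of different numbers were not examined as a baseline, nor were TEC and nonTEC arrays of the same number, so whether the numbers pair arrays was not tested. The fits over both fractions treated all arrays as independent. With the replicate block, 4 members were called in nonTEC at day 4, 44 for ageing in TEC and 37 at day 20 in TEC.

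With 2 or 3 arrays a group, small differences are not detectable. The level of 6.73 is the median of all deposited values, so values below it lie in the dimmer part of the arrays.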
